A study of Oryctolagus cuniculus with 27 samples.

Results

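The aortic valve cusp of normal rabbits was compared with the wall of the ascending aorta, the artery into which that valve opens. The comparison used all 4 control valve libraries and all 3 control ascending aorta libraries, 7 of the 27 libraries of the series, picked by the tissue and diet in their labels and by no measured value. All were bulk RNA libraries from wild-type male New Zealand rabbits on normal chow, none of which had received the cholesterol and ergocalciferol diet of the study's other animals. Each valve sample was 1 cusp, cleared of most of its fat and rinsed of blood, and the aorta was sampled close below the vessels to the head and neck. The 4 valves and the 3 aortas came from different animals, so no animal gave both tissues. Left ventricular myocardium from 3 chow-fed control animals is set beside them as a description, and 2 of those animals had also given control valves 2 and 3. Titles name 7 weeks for 3 control valves and 2 weeks for the other, whereas the design text speaks of 2 and 4 weeks, so the time of the controls is uncertain, and no age is given. Nothing states that aortas were sequenced in the same run as valves, so tissue and run cannot be told apart.

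A cusp is a thin leaflet in which fibroblast-like interstitial cells lie in layers of collagen, proteoglycan and elastin under a covering of endothelium. The ascending aorta is an elastic artery whose thick middle layer is made of contractile smooth muscle cells between sheets of elastin. Both arise at the outflow of the embryonic heart, where T-box and GATA factors pattern heart and cushion tissue and HOX genes mark position along the body axis.

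Values are expected counts, the reads that RSEM assigns to each gene, and levels are given as CPM, the counts of a gene scaled to the total of its library. In units of 1e6 counts, the control valves held 12.309 to 15.627, the control aortas 11.51 to 16.107 and the control myocardium 13.954 to 17.019. Differences are log2 fold changes of valve over aorta from edgeR's quasi-likelihood test, given with their SE and with p-values adjusted over all 14692 genes tested by the Benjamini-Hochberg method, and a gene was called at an adjusted p under 0.05. The libraries of each tissue carry different animal names.

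Some libraries stood apart. All 4 cusps held RNA of heart muscle: the 24 cardiomyocyte genes found in the tables summed to 2.14%, 1.01%, 4.53% and 2.65% of counts in valves 1 to 4, against 0.0745% to 0.102% in the aortas and 8.57% to 11.9% in myocardium. In a bulk sample such a level does not separate fewer cells of a type from less RNA per cell. Valve 2 lay nearest to the aortas, with correlations of log levels to them of 0.911 to 0.923 against 0.86 to 0.889 for the other valves, and it held the highest smooth muscle share. Aorta 2 had the highest aortic levels of several genes that were abundant in valves. The 18S ribosomal RNA entry took 0.476% to 2.06% of counts in valves and 2.96% to 6.27% in aortas.

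**Figure D1:**
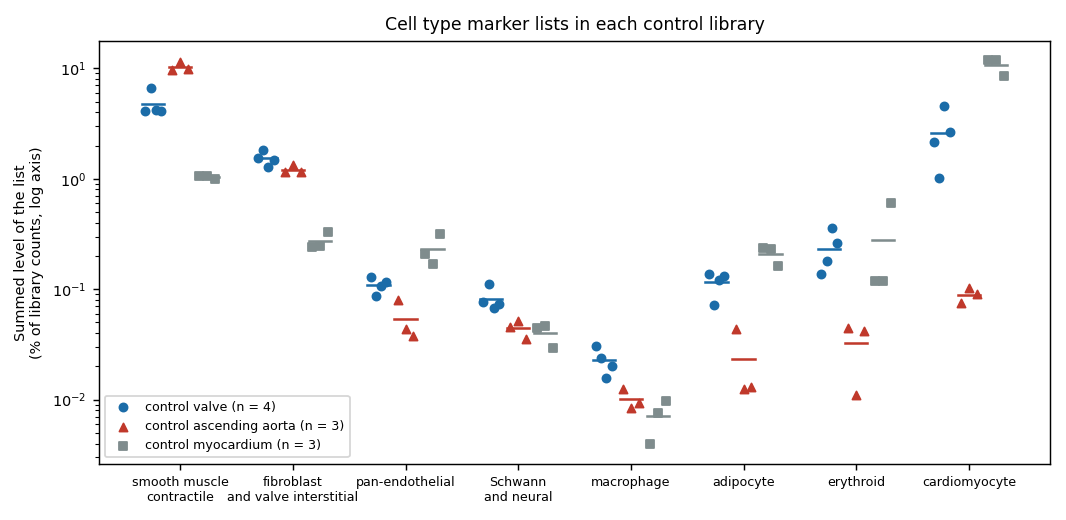
Summed level of 8 cell type marker lists in each library, as a percentage of all counts on a log axis, with points for libraries and short lines for group means, for control valve (n = 4), control ascending aorta (n = 3) and control myocardium (n = 3). Smooth muscle genes made up 4.09% to 6.68% of valve counts and 9.59% to 11.5% of aorta counts, and cardiomyocyte genes 1.01% to 4.53% of valve counts and 0.0745% to 0.102% of aorta counts.

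The labelled tissues carried their marker sets in part. Smooth muscle genes were abundant in the aortas, and 10 of 13 tested fibroblast and valve interstitial genes were higher in the cusps. Cusps also held smooth muscle genes at between the aortic and the myocardial level, and the heart muscle share described above.

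Of the 14692 genes tested, 2041 were higher in valve (13.9%) and 1673 were lower (11.4%). At 2-fold or more, 1571 were higher (10.7%) and 569 were lower (3.87%). Most called genes did not overlap between the tissues, 2019 of the 2041 higher and 1265 of the 1673 lower ones. Where lack of overlap is given below, it describes levels and adds little to a call. The median log2 fold change over all tested genes was -0.02. Scaling by library totals alone moved that median to 0.12 and the calls to 2588 higher and 860 lower, so that 75.1% of calls were higher in valve against 55% in the fit used here. Leaving out 1 library at a time left 1287 to 2395 higher and 778 to 1807 lower. The higher count was lowest without valve 4 (1287) and aorta 2 (1356), and the lower count without valve 1 (778), valve 4 (933), aorta 1 (848), aorta 2 (802) and aorta 3 (1022). Of the genes called here, 1061 of the higher and 589 of the lower ones were called in all 7 of those fits. With the cardiomyocyte share of each library as a covariate, 317 genes were higher and 161 lower, a fit in which share and tissue cannot be told apart well, since every valve's share exceeded every aorta's. Below, a gene is said to keep its call only where it was called in all 7 fits that left out 1 library. The covariate fit is not part of that rule.

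Much of the valve side was shared with heart muscle. Of the 2041 genes higher in valve, 1253 (61.4%) were more abundant in control myocardium than in the cusp by their means, against 32.8% of all tested genes. The other 788 were not. In a further fit the counts expected from each valve's heart muscle share were subtracted, and no count was allowed to become negative. They were scaled by cardiomyocyte genes but taken from whole myocardium, so they include RNA of any other cells in that tissue. There, 631 genes were higher and 468 lower, of which 553 and 340 had also been called in the same direction without subtraction. The myocardial level in CPM is therefore given beside many of the valve-high genes below. Its absence beside others does not mean that it was low.

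**Figure D2:**
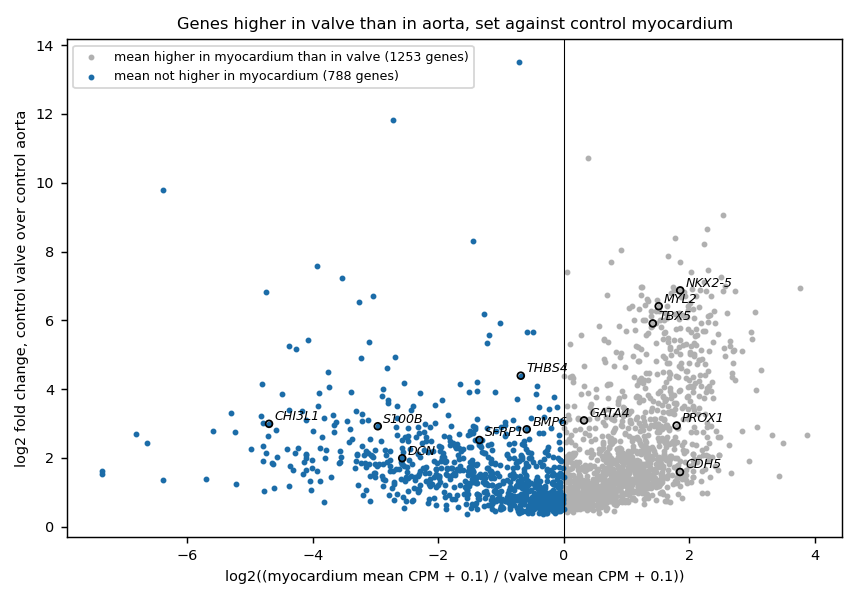
The 2041 genes called higher in valve, by their log2 ratio of mean CPM in control myocardium to control valve (0.1 CPM added to both) on the x axis and their log2 fold change of valve over aorta on the y axis. The 1253 genes right of the line were more abundant in myocardium than in valve, among them NKX2-5, MYL2, TBX5, PROX1 and CDH5, and the 788 others include THBS4, DCN, S100B, SFRP1 and CHI3L1.

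The contractile apparatus of smooth muscle was lower in the cusp. Of 30 smooth muscle contractile genes, all of which passed the filter on low counts, 25 were lower in valve (83.3%, against 11.4% of all genes), 2 were higher and 3 were not called, and the median log2 fold change of the list was -1.07. MYH11, the smooth muscle myosin heavy chain, had 7307, 14019, 7857 and 6683 CPM in valves 1 to 4, against 26398, 33783 and 23346 CPM in aortas 1 to 3. No valve reached the lowest aorta, although valve 2 stood far above the other 3 valves. Its log2 fold change was -1.79 ± 0.30 (adjusted p = 0.00583), and the call was kept.

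MYLK, the kinase that activates smooth muscle myosin, had 337, 586, 683 and 212 CPM in valves, against 1740.0, 2478 and 1734 CPM in aortas. FLNA, a filamin that crosslinks actin, had 1696, 2765, 2754 and 891 CPM in valves, against 7277, 13053 and 5998 CPM in aortas. CNN1, the actin-binding calponin of differentiated smooth muscle, had 819, 1536, 814 and 1098 CPM in valves, against 2065, 2886 and 2393 CPM in aortas. The 2 tissues did not overlap for any of these genes, and their log2 fold changes of -2.26 ± 0.39 for MYLK, -2.25 ± 0.43 for FLNA and -1.35 ± 0.24 for CNN1 were kept (adjusted p = 0.00656, 0.00881 and 0.00717). ACTA2, the smooth muscle actin, was less different. It had 7486, 11823, 6077 and 7675 CPM in valves, against 12415, 15305 and 12611 CPM in aortas, a log2 fold change of -0.86 ± 0.24 (adjusted p = 0.0346). Its call held without valve 2 (adjusted p = 0.0188) and was lost without each of valves 1, 3 and 4 and aortas 1 to 3 (adjusted p = 0.0646 to 0.134), and reads of near-identical actin genes may have been split between them. TAGLN, the actin-binding protein transgelin, likewise lost its call without valve 1, valve 3, valve 4, aorta 1 or aorta 3 (adjusted p = 0.0605 to 0.132). MYOCD, the coactivator that drives smooth muscle genes, lost it without valve 1, valve 4 or any 1 aorta (adjusted p = 0.0513 to 0.0645).

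Over the list, 14 to 23 members were lower when 1 library was left out, with 14 without aorta 3, 16 without valve 1 and 16 without aorta 2. With the cardiomyocyte share as a covariate, none was lower. With heart muscle counts subtracted, 7 members were lower, MYH11 among them (log2 fold change of -1.31, adjusted p = 0.0311), while MYLK missed the threshold (adjusted p = 0.0706). The 2 members that were higher were DES and TAGLN2. DES, the desmin of muscle intermediate filaments, had 494, 258, 982 and 666 CPM in valves, against 76.7, 159 and 90.9 CPM in aortas, but also 613 to 1855 CPM in myocardium. The lowest and the highest valve for DES, valves 2 and 3, also had the lowest and the highest cardiomyocyte sum. With heart muscle counts subtracted its adjusted p was 0.287. TAGLN2, a calponin relative of many cell types, was higher by less (0.63 ± 0.19, adjusted p = 0.0412), and its call was lost without each library other than valve 3 (adjusted p up to 0.114).

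Of 12 tested mural and pericyte genes, 4 were lower (33.3%, against 11.4% of all genes) and 3 were higher (25%, against 13.9%). RGS5, a regulator of G protein signalling in pericytes and arterial smooth muscle, had 5492, 5796, 5549 and 4169 CPM in valves, against 11153, 12356 and 10282 CPM in aortas (log2 fold change of -1.24 ± 0.21, adjusted p = 0.00626, kept). CSPG4, the pericyte proteoglycan NG2, had 213, 246, 197 and 173 CPM in valves, against 470.0, 668 and 468 CPM in aortas (-1.51 ± 0.17, adjusted p = 0.00246, kept). In both, every valve lay below every aorta. MCAM, an adhesion molecule of pericytes and endothelium, was also lower (-1.26 ± 0.25, adjusted p = 0.00979, kept, but 0.0569 with heart muscle counts subtracted), as was KCNJ8, a potassium channel subunit (-0.67 ± 0.20, adjusted p = 0.0404), whose call was lost without each library other than valve 2 (adjusted p up to 0.184). The 3 higher genes did not overlap between the tissues and kept their calls. They averaged more CPM in myocardium than in the cusps, as did 61.4% of all genes higher in valve. COX4I2, a cytochrome oxidase subunit, was at 3.33 to 6.58 CPM in valves, 0.434 to 0.486 CPM in aortas and 6.04 to 17.3 CPM in myocardium (3.28 ± 0.41, adjusted p = 0.00286). The mitochondrial proteins NDUFA4L2 and HIGD1B had log2 fold changes of 2.20 ± 0.35 and 2.13 ± 0.42 (adjusted p = 0.00534 and 0.00986). With heart muscle counts subtracted none of these 3 was called (adjusted p = 0.185, 0.482 and 0.734). Of 29 tested vasoactive receptor and contraction signalling genes, 11 were lower (37.9%) and 8 were higher (27.6%), against 11.4% and 13.9% of all genes. The lower ones included HTR2A, a serotonin receptor (-2.13 ± 0.36), and the alpha-1 adrenergic receptor gene ADRA1D (-1.66 ± 0.30). For 7 of the 8 higher genes the myocardial mean exceeded that of the cusps, and the list shares RYR2 and PLN with the cardiomyocyte genes. Among the 7, ADRB1, the cardiac beta-1 receptor, was at 5.76 to 26.3 CPM in valves, 0.243 to 0.435 CPM in aortas and 41 to 72.7 CPM in myocardium. The 1 exception was PTGER3, a prostaglandin E2 receptor, at 9.70 to 19.1 CPM in valves, 2.35 to 6.34 CPM in aortas and 1.88 to 2.94 CPM in myocardium.

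**Figure D3:**
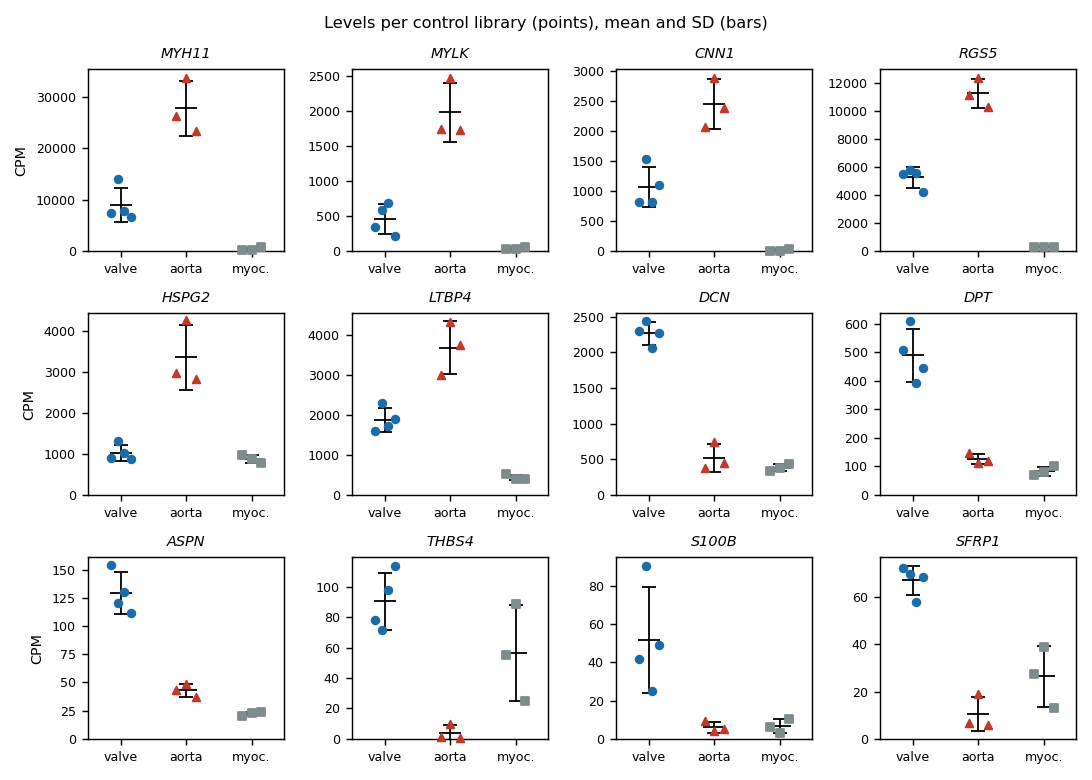
CPM of 12 genes in each control library (points), with the mean and SD as bars, for valve (n = 4), ascending aorta (n = 3) and myocardium (n = 3, marked myoc.), on linear axes from 0. The 4 valves lie below all 3 aortas for MYH11, MYLK, CNN1, RGS5, HSPG2 and LTBP4, and above all 3 for DCN, DPT, ASPN, THBS4, S100B and SFRP1.

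Of 22 tested proteoglycan and hyaluronan genes, 7 were higher in valve (31.8%, against 13.9% of all genes), 1 was lower (4.55%, against 11.4%) and 14 were not called, with a median log2 fold change of 0.86. The summed level of the list averaged 1.33% of counts in valves and 1.32% in aortas. DCN, the decorin that coats collagen fibrils, had 2300.0, 2444, 2058 and 2278 CPM in valves, against 373, 739 and 446 CPM in aortas, and 330 to 436 CPM in myocardium. ASPN, the related asporin, had 154, 120, 130 and 111 CPM in valves, against 43, 49 and 37.1 CPM in aortas, and 20.6 to 23.9 CPM in myocardium. Valves and aortas did not overlap for either gene. The log2 fold changes of 1.99 ± 0.26 for DCN and 1.45 ± 0.16 for ASPN were kept (adjusted p = 0.00297 and 0.00246), and with heart muscle counts subtracted they were 2.44 and 1.91 (adjusted p = 0.0122 and 0.0133). KERA, a corneal and valvular keratan sulfate proteoglycan (2.26 ± 0.58), and HAS2, a hyaluronan synthase (1.83 ± 0.44), were also higher. KERA was not called without valve 1, valve 4 or aorta 1 (adjusted p = 0.0577, 0.0603 and 0.0507), nor HAS2 without valve 4 or aorta 3 (0.0511 and 0.0510). The member that was lower was HSPG2, the basement membrane proteoglycan perlecan. It had 907, 1310, 1010 and 885 CPM in valves, against 2972, 4263 and 2836 CPM in aortas, without overlap (-1.85 ± 0.21, adjusted p = 0.00246, kept).

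Versican and aggrecan, the large hyaluronan-binding proteoglycans, were not called. VCAN had a log2 fold change of -0.58 ± 0.26 (adjusted p = 0.127). ACAN had 84.4, 29.9, 29.5 and 35.5 CPM in valves, against 3.56, 21.5 and 3.40 CPM in aortas, and at most 0.873 CPM in myocardium. Every valve lay above every aorta, yet aorta 2 was far above the other aortas, and the log2 fold change of 2.09 ± 0.69 missed the threshold (adjusted p = 0.0565). Without aorta 2 it was 3.58 (adjusted p = 0.0128), and without valve 2 it was 2.31 (adjusted p = 0.0494). SPP1, the secreted phosphoprotein osteopontin, had the same shape, with 218, 116, 110 and 121 CPM in valves, against 13.3, 68.7 and 6.32 CPM in aortas (2.13 ± 0.71, adjusted p = 0.0581, and 0.0091 without aorta 2).

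The fibroblast and valve interstitial markers include DCN itself. They share DCN and LUM with the proteoglycan list and MFAP5 with the elastic fibre list, so these lists are not independent. Of 13 tested, 10 were higher in valve (76.9%, against 13.9% of all genes), 1 was lower and 2 were not called, with a median log2 fold change of 1.16. For none of the 10 did the myocardial mean exceed that of the cusps, against 61.4% of all genes higher in valve. DPT, the collagen-binding dermatopontin, had 510, 610, 391 and 446 CPM in valves, against 145, 110 and 120 CPM in aortas, and 67.8 to 101 CPM in myocardium (1.82 ± 0.17, adjusted p = 0.00234, kept). SERPINF1, pigment epithelium-derived factor, had 332, 389, 276 and 362 CPM in valves, against 86.8, 130 and 63.9 CPM in aortas (1.72 ± 0.24, adjusted p = 0.00344, kept). No valve fell into the aortic range for either. With 1 library left out, 8 to 10 members were higher, 4 were with the cardiomyocyte share as a covariate, and 11 were with heart muscle counts subtracted. VIM, the mesenchymal intermediate filament vimentin, was the member that was lower (-0.76 ± 0.19, adjusted p = 0.0231), a call lost without valve 1, valve 4 or any 1 aorta (adjusted p = 0.065 to 0.0966).

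Of 9 tested fibrillar collagens, 1 was higher in valve (11.1%, near the 13.9% of all genes) and none was lower (against 11.4%). The called gene was COL5A3, a minor chain of type V collagen. It had 49.4, 55.0, 44.6 and 40.8 CPM in valves, against 16.4, 7.20 and 10.6 CPM in aortas (1.92 ± 0.26, adjusted p = 0.00334, kept), but 69.1 to 107 CPM in myocardium, and with heart muscle counts subtracted the log2 fold change was 0.95 (adjusted p = 0.618). The main fibril chains overlapped between tissues: COL1A1 had a log2 fold change of 0.36 ± 0.30 (adjusted p = 0.415) and COL3A1 one of -0.47 ± 0.24 (adjusted p = 0.181). Of 23 other collagens, 3 were higher (13%) and 5 were lower (21.7%), against 13.9% and 11.4% of all genes. COL22A1, a collagen of tissue junctions, had 1.92, 3.26, 2.07 and 2.76 CPM in valves, against 0.174, 0.248 and 0 CPM in aortas, and at most 0.940 CPM in myocardium (3.88 ± 0.62, adjusted p = 0.00532, kept). The lower ones included COL18A1 (-1.29 ± 0.30, adjusted p = 0.0163), which carries endostatin, and the basement membrane chain COL4A2 (-0.78 ± 0.16, adjusted p = 0.0119), both not called without aorta 2 (adjusted p = 0.0687 and 0.0539), and COL4A2 also not without aorta 1 (0.0518).

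Of 22 tested elastic fibre genes, 7 were lower (31.8%, against 11.4% of all genes), 3 were higher (13.6%, against 13.9%) and 12 were not called, with a median log2 fold change of -0.41. ELN, elastin itself, was not among the calls. It had 2205, 1012, 767 and 1361 CPM in valves, against 1588, 840 and 2177 CPM in aortas, so the tissues overlapped across their ranges (-0.36 ± 0.41, adjusted p = 0.553). LTBP4, a latent TGF-beta binding protein needed for elastic fibre assembly, had 1599, 2304, 1736 and 1889 CPM in valves, against 3007, 4324 and 3748 CPM in aortas (-1.11 ± 0.21, adjusted p = 0.00803, kept). LTBP3 was lower by more (-1.49 ± 0.27, adjusted p = 0.00762, kept). FBN1, the fibrillin of microfibrils, was lower by -0.91 ± 0.25 (adjusted p = 0.0308), but by -0.59 without aorta 2 (adjusted p = 0.127), and its call was also lost without valve 1, valve 4 or aorta 1 (adjusted p = 0.0694 to 0.079). FBLN5, a fibulin that tethers elastic fibres to cells, had a log2 fold change of -0.93 ± 0.24 (adjusted p = 0.0264), which was -0.56 without aorta 2 (adjusted p = 0.117) and lost its call without valve 1, valve 2 or valve 4 (adjusted p = 0.0557 to 0.0616). LOX, the collagen and elastin crosslinking oxidase (-0.70 ± 0.21, adjusted p = 0.0416), was called in the absence of valve 1 and lost its call without each other library (adjusted p = 0.0751 to 0.14). With heart muscle counts subtracted no elastic fibre gene was called lower, and with 1 library left out 5 were without valve 3, 4 without valve 2 or aorta 3, 3 without valve 1 or aorta 1 and 2 without valve 4 or aorta 2. On the valve side, MFAP5, a microfibril glycoprotein, had 1029, 992, 748 and 807 CPM in valves, against 464, 564 and 434 CPM in aortas (0.73 ± 0.16, adjusted p = 0.0146), a call lost without aorta 1 or aorta 3 (highest adjusted p = 0.0609).

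Of 22 tested matricellular genes, whose products sit in matrix and signal to cells, 4 were higher and 4 were lower (18.2% each way), near the 13.9% and 11.4% of all genes. THBS4, a thrombospondin of tendon and heart, was the one with the widest gap. It had 78.3, 71.7, 97.6 and 114 CPM in valves, against 0.869, 9.87 and 0.810 CPM in aortas, and 25 to 88.3 CPM in myocardium (4.39 ± 0.80, adjusted p = 0.00763, kept). After subtraction of heart muscle counts the log2 fold change was 4.65 (adjusted p = 0.0339), and without aorta 2 it was 6.65. THBS1, a thrombospondin that activates latent TGF-beta, was at 51.6 to 106 CPM in valves and 6.65 to 26.1 CPM in aortas (2.35 ± 0.49, adjusted p = 0.0117, kept). The lower genes were SMOC2, EDIL3, CCN3 and SMOC1, with log2 fold changes from -1.60 to -1.05, and the first 3 of these kept their calls. SMOC1, the last, was not called without valve 1, valve 3 or any 1 aorta (adjusted p = 0.0515 to 0.101).

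Of 14 tested cartilage-type matrix genes, 4 were higher (28.6%) and 2 were lower (14.3%), against 13.9% and 11.4% of all genes. SCRG1, a small secreted chondrocyte protein, had 7.48, 2.30, 0.889 and 1.62 CPM in valves, against 0.0869, 0.248 and 0.162 CPM in aortas (3.93 ± 0.87, adjusted p = 0.0145, kept). UCMA, a cartilage matrix protein rich in gamma-carboxyglutamate, was higher too (3.38 ± 0.74, adjusted p = 0.0141, kept). CNMD, the antiangiogenic chondromodulin reported in valves, was lower in these cusps than in the aortas. It had 39.5, 120, 37.3 and 43.9 CPM in valves, against 208, 89.3 and 290 CPM in aortas, with valve 2 above aorta 2 (-1.89 ± 0.48, adjusted p = 0.0225). That call was lost without valve 1, valve 4, aorta 1 or aorta 3 (adjusted p = 0.0597 to 0.0836). SOX9, the chondrogenic factor also active in valve mesenchyme, had 8.05, 7.23, 11.3 and 4.14 CPM in valves, against 14.1, 31.5 and 10.1 CPM in aortas. Its log2 fold change of -1.39 ± 0.43 (adjusted p = 0.0458) rested on aorta 2, without which it was -0.74 (adjusted p = 0.211), and its call was also lost without valve 1, valve 2, valve 4 or aorta 1 (adjusted p = 0.0652 to 0.108). COL2A1 and HAPLN1 were not called (adjusted p = 0.604 and 0.946).

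Many endothelial genes were higher in the cusp. Of 28 tested pan-endothelial genes, 16 were higher (57.1%, against 13.9% of all genes), none was lower and 12 were not called, with a median log2 fold change of 1.21. For 14 of the 16 the myocardial mean exceeded that of the cusps, against 61.4% of all genes higher in valve. CDH5, the cadherin of endothelial junctions, had 53.9, 38.5, 66.9 and 56.2 CPM in valves, against 25.4, 11.4 and 13 CPM in aortas, and 160 to 212 CPM in myocardium. Valves and aortas did not overlap (1.59 ± 0.34, adjusted p = 0.0123, kept). With heart muscle counts subtracted, the log2 fold change was -1.98 (adjusted p = 0.363) and 3 members of the list were higher, among them RAMP2, the adrenomedullin receptor subunit, at 71.1 to 138 CPM in valves, 21.7 to 42.7 CPM in aortas and 42.2 to 107 CPM in myocardium (1.75 ± 0.31, and 1.86 after subtraction with adjusted p = 0.0355). The subtraction also takes away endothelial RNA of the myocardium samples, so a call lost there does not show where the cusp's RNA came from. PECAM1 and VWF were not called, and their levels overlapped between the tissues (1.05 ± 0.42, adjusted p = 0.0957, and 0.49 ± 0.55, adjusted p = 0.541). With 1 library left out, 8 to 21 members were higher, with 8 without valve 4, aorta 2 or aorta 3, and with the cardiomyocyte share as a covariate 1 was.

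Among 18 tested valve and flow-related endothelial genes, 10 were higher (55.6%, against 13.9% of all genes) and 1 was lower (5.56%, against 11.4%). NFATC1, the factor of endocardial cushion endothelium, lay at one level throughout, with 34.3, 32.3, 34.8 and 33 CPM in valves, against 33.5, 31.8 and 34.7 CPM in aortas (-0.12 ± 0.13, adjusted p = 0.532). PROX1, known from lymphatic endothelium, the downstream face of valves and heart muscle, had 23.5, 12, 45.2 and 27.9 CPM in valves, against 2.09, 2.17 and 5.67 CPM in aortas, and 77.9 to 110 CPM in myocardium. Its log2 fold change was 2.94 ± 0.58 (adjusted p = 0.00996, kept). With heart muscle counts subtracted it was -8.34. The counts expected from heart muscle reached or exceeded the PROX1 counts of the valves, so subtraction left almost none. The size of -8.34 is therefore no estimate of a reversal. KLF2, a factor induced by laminar flow, had 31.3, 33, 37.9 and 32.6 CPM in valves, against 20.4, 20.4 and 16.6 CPM in aortas, and 32.9 to 61.2 CPM in myocardium (0.69 ± 0.16, adjusted p = 0.0166, kept), and an adjusted p of 0.348 after subtraction. BMP6 was higher in valve on both counts, with 14.8, 3.78, 11.3 and 12.8 CPM in valves, against 1.56, 1.68 and 0.892 CPM in aortas (2.83 ± 0.52, adjusted p = 0.00795, kept), and 3.05 with adjusted p = 0.0353 after subtraction. Myocardium held 6.46 to 7.45 CPM of BMP6, above valve 2. The lower gene was PKD1, the polycystin of flow sensing, with 327, 335, 345 and 288 CPM in valves, against 714, 1237 and 670 CPM in aortas (-1.56 ± 0.23, adjusted p = 0.00421, kept).

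**Figure D4:**
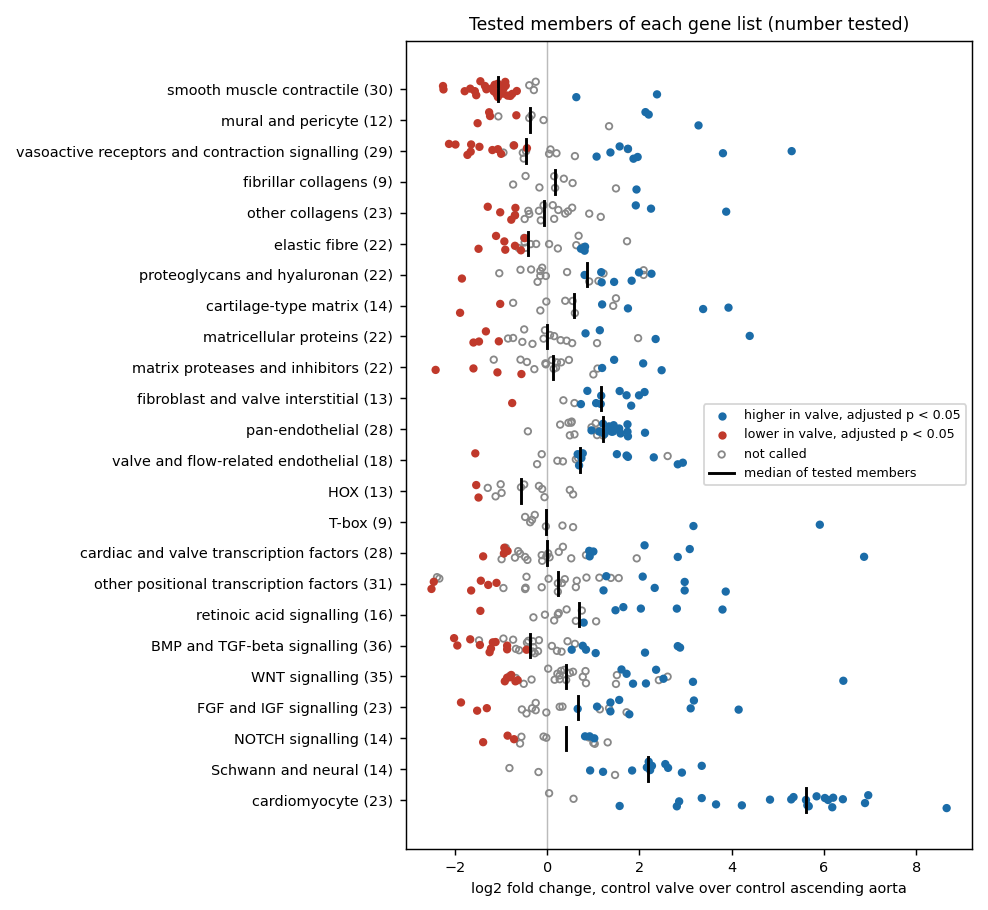
Log2 fold change of valve over aorta for every tested member of 24 gene lists, 1 point per gene, filled where called higher (blue) or lower (red) and open where not called, with a black bar at the list's median and the number tested in brackets. The median was -1.07 for smooth muscle contractile genes, 1.16 for fibroblast and valve interstitial genes, 1.21 for pan-endothelial genes, 2.18 for Schwann and neural genes and 5.61 for cardiomyocyte genes.

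HOX genes were detected in both tissues, and 2 of 13 tested were lower in the cusp (15.4%), near the 11.4% of all genes. Of 39 listed HOX genes, 38 were in the tables and 13 passed the filter. Of these, HOXA2, HOXA3, HOXB2, HOXB3 and HOXB4 averaged at least 5 CPM in valve or aorta. The 25 that did not pass reached at most 1.02 CPM in any valve or aorta. HOXA3, which patterns the branchial arch arteries, had 11, 18.6, 13.5 and 8.77 CPM in valves, against 37.2, 26.4 and 34.8 CPM in aortas, and 0.201 to 2.82 CPM in myocardium. All valves lay below all aortas (-1.49 ± 0.23, adjusted p = 0.00504, kept). Its call was lost with heart muscle counts subtracted (-1.01, adjusted p = 0.0636), with all 27 libraries in 1 fit (-1.49, adjusted p = 0.0535) and with the cardiomyocyte share as a covariate (-1.42, adjusted p = 0.0922).

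The median log2 fold change of the 13 HOX genes was -0.57, against -0.02 over all tested genes. Of the 13, 11 had negative values, of which 2 were called. Valve 2 carried the highest valve level of most HOX genes. HOXB3 had 16.4, 25.8, 6.89 and 8.63 CPM in valves, against 31.8, 20.8 and 30.4 CPM in aortas (-1.12 ± 0.37, adjusted p = 0.0574). HOXB4 had 13.2, 30.8, 5.92 and 7.54 CPM in valves, against 23.0, 11 and 40.4 CPM in aortas (-0.99 ± 0.56, adjusted p = 0.222). Without valve 2, 5 HOX genes were lower, with HOXB3 at -1.43 (adjusted p = 0.0134) and HOXB4 at -1.54 (adjusted p = 0.0480). The 4 HOX clusters together took 0.00467% to 0.0134% of counts in valves, 0.00882% to 0.0163% in aortas and 2.69e-04% to 0.00243% in myocardium. Of 7 tested HOX cofactors, 1 was higher (14.3%, near the 13.9% of all genes) and none was lower (against 11.4%). The called gene was MEIS3 (0.89 ± 0.25, adjusted p = 0.0353), and it was not called without valve 1, valve 2, valve 4, aorta 1 or aorta 2 (adjusted p = 0.0571 to 0.105).

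Of the T-box family, 9 of 17 listed genes passed the filter and 2 were higher in valve (22.2%, against 13.9% of all genes). TBX5, the factor of atria, left ventricle and forelimb, had 11.9, 5.63, 18.4 and 10.9 CPM in valves, against 0.174, 0.248 and 0.0810 CPM in aortas, and 21.6 to 39.8 CPM in myocardium (5.91 ± 0.63, adjusted p = 0.00238, kept). TBX20, active in heart muscle and in the endocardial cushions from which valves form, had 87.9, 43.7, 135 and 65.1 CPM in valves, against 1.74, 21.4 and 2.27 CPM in aortas, and 61.5 to 213 CPM in myocardium. Neither gene overlapped between valve and aorta. TBX20 had a log2 fold change of 3.17 ± 0.87 (adjusted p = 0.0296) that was 5.29 without aorta 2 (adjusted p = 0.0091). Its call was lost without valve 1, valve 3, valve 4, aorta 1 or aorta 3 (adjusted p = 0.0506 to 0.0734). Subtraction of heart muscle counts left TBX5 at 3.65 (adjusted p = 0.111) and TBX20 at 2.68 (adjusted p = 0.143). TBX2, TBX3, TBX18, TBX1, TBX6, TBX15 and MGA were not called, with log2 fold changes from -0.48 to 0.56.

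**Figure D5:**
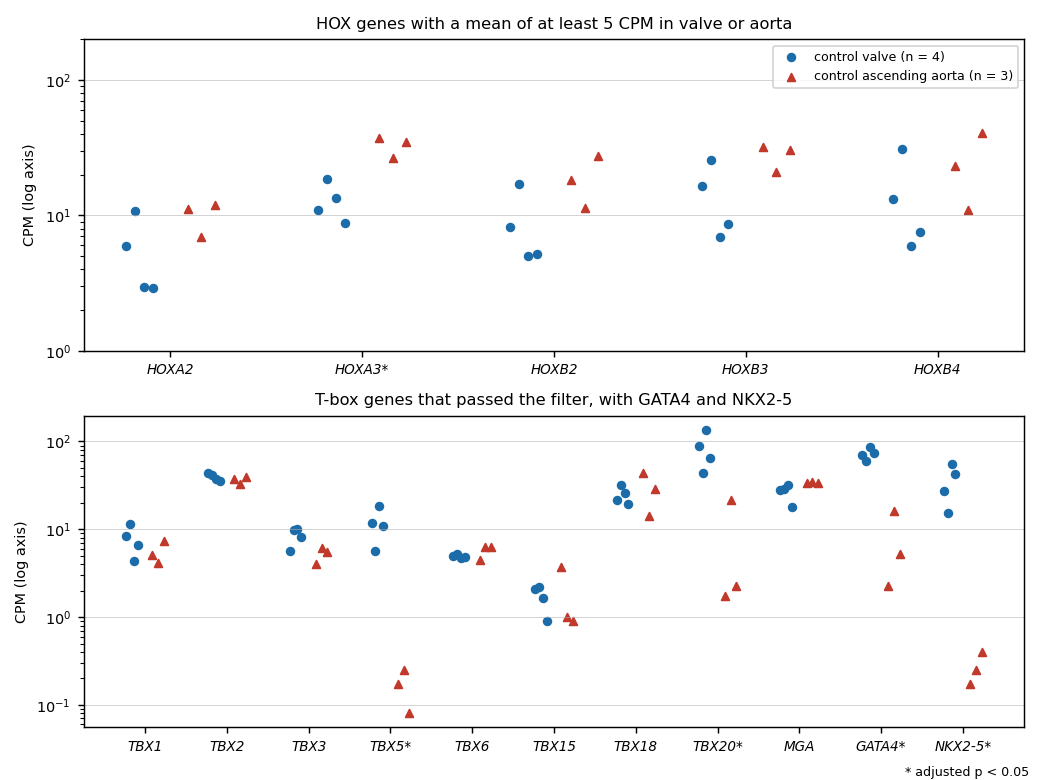
CPM on a log axis of the HOX genes with a mean of at least 5 CPM in valve or aorta (top) and of the 9 T-box genes that passed the filter, with GATA4 and NKX2-5 (bottom), in each control valve (circles, n = 4) and each control ascending aorta (triangles, n = 3), with an asterisk at an adjusted p under 0.05. HOXA3 lies at 8.77 to 18.6 CPM in valves and 26.4 to 37.2 CPM in aortas, and GATA4 at 60.1 to 87.4 CPM in valves and 2.26 to 16 CPM in aortas.

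Of 28 tested cardiac and valve transcription factors, 7 were higher in valve (25%, against 13.9% of all genes), 4 were lower (14.3%, against 11.4%) and 17 were not called, with a median log2 fold change of -0.00. For 4 of the 7 the myocardial mean exceeded that of the cusps, near the 61.4% among all genes higher in valve. NKX2-5, the homeobox factor of heart muscle, had 27.6, 15.4, 55.4 and 43.1 CPM in valves, against 0.174, 0.248 and 0.405 CPM in aortas, and 115 to 142 CPM in myocardium (6.87 ± 0.69, adjusted p = 0.00238, kept). The valve mean was 0.276 of the myocardial mean, and over the cardiomyocyte genes the median ratio of a valve to myocardium was 0.128 to 0.527. Those ratios were 0.261, 0.128, 0.527 and 0.36 in valves 1 to 4. In each valve, the ratio times the myocardial NKX2-5 mean of 128.1 CPM exceeded the valve's NKX2-5 level. Subtraction of heart muscle counts therefore left no NKX2-5 counts in the valves. The source of the NKX2-5 RNA in the cusps was not tested. GATA4, a zinc finger factor of heart muscle, endocardium and cushion mesenchyme, stood nearer to the myocardial level. It had 69.9, 60.1, 87.4 and 74.3 CPM in valves, against 2.26, 16 and 5.19 CPM in aortas, and 45.1 to 119 CPM in myocardium, so that the valve mean was 0.800 of the myocardial one. Its log2 fold change was 3.09 ± 0.56 (adjusted p = 0.00763, kept), and 2.87 with heart muscle counts subtracted (adjusted p = 0.0363). SCX, the tendon factor scleraxis (2.83 ± 0.46), was also higher, at 13.1 to 28.9 CPM in valves and 12.5 to 34.4 CPM in myocardium. TCF21, a factor of cardiac fibroblasts (2.11 ± 0.47), was at 7.92 to 15.1 CPM in valves and 4.1 to 8.46 CPM in myocardium. Both were kept and held after subtraction (2.65 and 2.33, adjusted p = 0.0357 and 0.0466). HAND2 and TWIST1 were not called (adjusted p = 0.145 and 0.841).

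On the aortic side stood EYA1 and EYA2, coactivators in outflow tract and branchial arch development. EYA1 had 1.35, 2.88, 0.444 and 0.731 CPM in valves, against 5.30, 7.57 and 7.78 CPM in aortas, and 0 in all 3 myocardium libraries (-2.51 ± 0.50, adjusted p = 0.00979, kept). EYA2 had 5.98, 11.4, 4.00 and 4.79 CPM in valves, against 19.7, 17.6 and 17.4 CPM in aortas (-1.65 ± 0.29, adjusted p = 0.00672, kept). Both stayed called with heart muscle counts subtracted (adjusted p = 0.0350 and 0.0257). MEF2C and MECOM were lower by less than 2-fold (-0.93 ± 0.14 and -0.94 ± 0.16) and kept their calls.

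In the BMP and TGF-beta list, 7 of 36 were higher (19.4%, against 13.9% of all genes) and 11 were lower (30.6%, against 11.4%). The higher ones were the ligands BMP4, BMP5, BMP6 and TGFB2, the antagonists CHRDL1 and FST and the receptor ACVRL1. BMP5 had 21.6, 11.3, 20 and 17 CPM in valves, against 1.91, 3.79 and 0.729 CPM in aortas, and 13.5 to 17.9 CPM in myocardium (2.88 ± 0.49, adjusted p = 0.00647, kept). CHRDL1, a BMP antagonist, had 87.4, 63.5, 51.3 and 64.4 CPM in valves, against 23.3, 10.1 and 8.43 CPM in aortas, and at most 4.23 CPM in myocardium (2.12 ± 0.35, adjusted p = 0.00583, kept). The lower ones included the receptors BMPR1A, BMPR1B and TGFBR1 and the target genes ID1 and ID2, but also the ligands BMP3 and INHBA and the antagonist NOG. ID2, a target of BMP signalling that blocks other transcription factors, had 55.2, 69.9, 49.1 and 66.0 CPM in valves, against 220, 141 and 299 CPM in aortas (-2.02 ± 0.26, adjusted p = 0.00292, kept). SMAD9, a receptor-regulated SMAD, had 77.5, 84.9, 80.0 and 67.7 CPM in valves, against 178, 188 and 216 CPM in aortas (-1.46 ± 0.14, adjusted p = 0.00234, kept). BAMBI, a decoy receptor, was at 23.4 to 42.7 CPM in valves and 82.4 to 176 CPM in aortas (-1.95 ± 0.28, adjusted p = 0.00412, kept). None of these 5 genes overlapped between the tissues.

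Of 35 tested WNT genes, 8 were higher (22.9%, against 13.9% of all genes) and 6 were lower (17.1%, against 11.4%). SOST, a bone-derived WNT antagonist, was lower (-0.81 ± 0.22, adjusted p = 0.0302), a call lost without valve 1, valve 2, valve 3, aorta 1 or aorta 2 (adjusted p up to 0.126). SFRP1, a secreted frizzled-related inhibitor, had 72.4, 69.8, 58.1 and 68.5 CPM in valves, against 6.78, 19.0 and 6 CPM in aortas, and 12.9 to 38.9 CPM in myocardium (2.52 ± 0.38, adjusted p = 0.00434, kept). DKK1, which blocks the LRP coreceptors, had 2.42, 5.82, 1.41 and 2.76 CPM in valves, against 0.261, 0.310 and 0.324 CPM in aortas, and at most 0.470 CPM in myocardium (3.16 ± 0.54, adjusted p = 0.00631, kept). FZD7, a WNT receptor, had 26.9, 32.9, 28 and 28.8 CPM in valves, against 45.8, 49.2 and 55.6 CPM in aortas (-0.92 ± 0.13, adjusted p = 0.00376, kept).

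In the FGF and IGF list, 9 of 23 were higher (39.1%, against 13.9% of all genes) and 3 were lower (13%, against 11.4%). FGFR2, an FGF receptor, had 37.9, 60.9, 32.8 and 27.7 CPM in valves, against 127, 131 and 132 CPM in aortas (-1.87 ± 0.21, adjusted p = 0.00246, kept). IGF1R, the receptor of insulin-like growth factors, had 66.0, 57.0, 56.1 and 52.6 CPM in valves, against 150, 160 and 143 CPM in aortas (-1.52 ± 0.13, adjusted p = 0.00234, kept). FGF13, an intracellular FGF, was the other (-1.31 ± 0.17, adjusted p = 0.00295, kept). Of the 9 higher genes, 6 had a myocardial mean below that of the cusps and 3 had one above it, against 61.4% above it among all genes higher in valve. The FGF ligands FGF16 and FGF1 belonged to the 3, at 24.9 to 37.2 and 115 to 193 CPM in myocardium.

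Of 16 tested genes of retinoic acid handling, 6 were higher (37.5%, against 13.9% of all genes) and 1 was lower (6.25%, against 11.4%). CRABP2, which carries retinoic acid to its nuclear receptor, had 18.6, 23.7, 15.5 and 24.8 CPM in valves, against 0.608, 6.58 and 0.567 CPM in aortas, and at most 1.53 CPM in myocardium. The log2 fold change of 2.81 ± 0.74 (adjusted p = 0.0254) was 5.01 without aorta 2 (adjusted p = 0.0031), and the call was lost without valve 1, valve 4, aorta 1 or aorta 3 (adjusted p = 0.0510 to 0.0664). STRA6, the retinol uptake receptor, was higher and kept its call (log2 fold change of 2.03 ± 0.42). RXRG, a retinoid X receptor, had 24.1, 14.3, 34.2 and 22.0 CPM in valves, against 2.43, 1.06 and 1.3 CPM in aortas, and 34.1 to 68.6 CPM in myocardium (3.80 ± 0.45, adjusted p = 0.00246, kept). RDH10, the enzyme that begins the oxidation of retinol, had 15.9, 20, 15.1 and 14.5 CPM in valves, against 37.4, 29.4 and 54.0 CPM in aortas (-1.45 ± 0.22, adjusted p = 0.00434, kept).

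Of 14 tested Schwann and neural markers, 11 were higher in the cusp (78.6%, against 13.9% of all genes) and none was lower, with a median log2 fold change of 2.18. For none of the 11 did the myocardial mean exceed that of the cusps, against 61.4% of all genes higher in valve. S100B, a calcium-binding protein of glia and also of cartilage and fat, had 41.7, 90.6, 25.2 and 49.2 CPM in valves, against 9.38, 3.91 and 5.03 CPM in aortas, and 3.16 to 10.5 CPM in myocardium (2.92 ± 0.44, adjusted p = 0.00456, kept). STMN2, a tubulin regulator of growing axons, had 4.06, 2.5, 3.11 and 6.09 CPM in valves, against 0.521, 0.435 and 0.0810 CPM in aortas (3.35 ± 0.59, adjusted p = 0.00678, kept). UCHL1, a neuronal ubiquitin hydrolase, had 9.33, 6.27, 9.63 and 14.1 CPM in valves, against 1.04, 1.80 and 1.70 CPM in aortas (2.56 ± 0.39, adjusted p = 0.00443, kept). No valve overlapped an aorta for these genes. Of 7 tested adipocyte markers, listed for the fat around the cusp, 3 were higher (42.9%, against 13.9% of all genes) and none was lower (against 11.4%). Their list summed to 0.0723% to 0.137% of counts in valves, 0.0126% to 0.0439% in aortas and 0.161% to 0.235% in myocardium. Melanocyte markers gave no call among 2 tested, too few to set against the shares of all genes. Mesothelial and epithelial markers gave 1 higher among 7, KRT18 (14.3%, near the 13.9% of all genes), and none lower (against 11.4%).

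The genes with the widest gaps, in any list or none, were taken from all genes called, without overlap between libraries, at 5 CPM or more in the higher tissue and, for the valve side, below the valve level in myocardium. The 12 on the valve side included CASQ1, VAT1L, THBS4, IGFBPL1, KRT18, PSAT1, SAA3, KLB, PFKFB1, CA3 and CHI3L1, with log2 fold changes from 2.99 to 5.66. CHI3L1, a chitinase-like protein of chondrocytes and macrophages, had 57.0, 28.9, 23.7 and 54.6 CPM in valves, against 1.22, 11.2 and 1.38 CPM in aortas, and at most 2.7 CPM in myocardium (2.99 ± 0.75, adjusted p = 0.0222). Its log2 fold change was 4.88 without aorta 2, and its call was lost without valve 1, valve 4, aorta 1 or aorta 3 (adjusted p = 0.0536 to 0.0577). CASQ1, skeletal calsequestrin, was the first of the 12 (5.66 ± 0.78) and stood at 18.3 to 34.1 CPM in myocardium, against 16.7 to 78.4 CPM in valves. The 12 on the aortic side were RN7SL1, KCNH1, EVPL, EYA1, SEMA3E, ADAMTS9, TMEM47, TFCP2L1, TNRC18, P2RX1, MYLK and SLC24A4, with log2 fold changes from -3.36 to -2.25. KCNH1, a potassium channel, was at -1.86 and ADAMTS9, a versican-cleaving protease, at -1.58 without aorta 2, and on the valve side PFKFB1 was at 5.22 without aorta 1. RN7SL1 belongs to a repeated RNA family whose reads may be shared among copies. SEMA3E, a semaphorin that guides vessels and axons, had 9.12, 15.4, 2.74 and 5.28 CPM in valves, against 53.5, 35.9 and 31 CPM in aortas, and at most 0.143 CPM in myocardium (-2.48 ± 0.44, adjusted p = 0.007, kept).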

How the data were processed

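RNA from 27 rabbit tissue samples was extracted with Trizol, made into directional libraries and sequenced as single-end reads, per the labels' protocols. The deposited values are expected counts per gene, which the authors made with Trim Galore 0.6.6, STAR 2.7.8a and RSEM 1.3.3, per the submitters' processing notes, which also name edgeR 3.42.4 and FastQC 0.11.9. Neither the strand setting nor the annotation or build is given in the sources used here, and reads of overlapping genes cannot be told apart. The unfiltered valve table was used. Of the values, 9.63% were not whole and were rounded.

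The 4 control valves and 3 control aortas were fitted with edgeR 4.0.16 in R 4.3.3: filterByExpr (minimum count 10, total 15), TMM factors, the quasi-likelihood F-test and Benjamini-Hochberg adjustment, with calls at 0.05. CPM values are counts over library totals. On simulated data 30.61% of 98 genes changed by 1 and 81.05% of 95 genes changed by 2 on the log2 scale were called, and 0.01% of unchanged genes. Only 200 genes were changed there before the filter, whereas 25.3% of tested genes were called in the data. The adjustment of p-values depends on that share, so these percentages do not give the detection rates of the comparison itself. With 4 against 3 libraries an exact permutation test cannot go below 0.0571, so no single-gene permutation test is given.

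The members and the 39 gene lists (786 entries, 39 absent from the tables) were chosen with earlier results of these data known. Named genes were the 12 most changed in each direction with no overlap and at least 5 CPM, up to 4 called members per list and direction at 1 CPM or more, and a set named whatever the result; other list members and the libraries' calls given for them were named after their values were seen. Alternatives covered scaling, the filter, DESeq2 1.42.0, the libraries fitted, a cardiomyocyte covariate, a replicate block and, chosen after seeing the data, subtraction of each valve's median cardiomyocyte ratio to myocardium times the myocardial mean. Counts that this subtraction would have made negative were cut off at none. Some named items are not reported here. No sequences were used here.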

Additional observations from a re-analysis of the deposited data

Results flagged for a closer look

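Of 110 sets of 4 valve values examined, 6 held a library whose gap to its nearest neighbour, divided by the range of all 4, exceeded Dixon's critical value at the 95% level, and chance gives about 1 in 20. Valve 2 stood above the other valves for MYH11, at 14019.0 CPM against 6683.3 to 7856.9 CPM. The smooth muscle contractile genes together took 6.68% of its counts, against 4.09% to 4.15% in the other valves. CNMD was at 120.3 CPM in valve 2, against 37.3 to 43.9 CPM in the others. The HOX genes of cluster D took 0.00163% of its counts, against 5.26e-04% to 6.20e-04%. Valve 1 stood above the other valves for ACAN, at 84.4 CPM against 29.5 to 35.5 CPM, and for SPP1, at 217.5 CPM against 109.8 to 120.9 CPM.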

How the results depend on the processing

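Upper quartile and relative log expression scaling, no filter, DESeq2, all 27 libraries in 1 fit and the authors' filtered valve table kept the counts of higher and lower genes within 1.5 times those reported. DESeq2 is a separate method with its own scaling and test, run on 23105 genes without edgeR's filter. Library totals alone gave 860 lower. The cardiomyocyte share as a covariate left 317 higher and 161 lower (315 and 150 at 2-fold or more), and a test against a log2 fold change of 1 left 424 and 50. Subtraction of heart muscle counts left 631 and 468 (491 and 281 at 2-fold or more). The replicate block left 726 and 331 (685 and 241 at 2-fold or more), against 1287 and 933 in the same 6 libraries without the block. The cause of these moves was not tested. Replicate numbers mark different animals, and deviations of same-numbered valves and aortas correlated at 0.066, -0.112 and -0.096, with valve 1 closest to aorta 1, valve 2 to aorta 3 and valve 3 to aorta 2, so the numbers do not pair the libraries. Under the covariate, the block, the fold threshold and subtraction in that order, members called were 0, 9, 0 and 7 for lower smooth muscle genes, 1, 9, 0 and 3 for higher pan-endothelial genes, 4, 5, 4 and 11 for higher fibroblast genes, 3, 4, 1 and 7 for higher proteoglycans, 0, 1, 0 and 0 for lower elastic fibre genes, and 0, 1, 0 and 0 for lower HOX genes. Subtraction left 4 cardiomyocyte genes higher. Without a block, the 6 libraries gave 8 pan-endothelial, 2 elastic fibre and 1 HOX call. Elastic fibre calls were 4 with upper quartile scaling or no filter and 2 with library totals. HOX calls were 1 with relative log expression, upper quartile or library total scaling, no filter or the filtered table, 4 with DESeq2 and 0 with all 27 libraries. Leaving out 1 library gave 1287 to 2395 higher and 778 to 1807 lower genes, 1092 to 1813 and 343 to 657 at 2-fold or more, 14 to 23 lower smooth muscle, 8 to 21 higher pan-endothelial, 2 to 5 lower elastic fibre and 1 to 5 lower HOX genes. With subtraction the direction turned for MMP15 (-0.41), SOX7 (-0.01), PROX1 (-8.34), TCF15 (-2.28), JAG2 (-2.43), FGF1 (-0.18), MYBPC3 (-9.65) and CDH5 (-1.98). Valves left with no counts by the subtraction can drive such values, as for PROX1, so they are no estimates of a reversal. Of the 183 named genes called, 115 kept the call without any 1 library. Depth limits genes of few counts, and 4 against 3 libraries limit small changes.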

Other observations

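Regulators of mineralisation, a list chosen because valves and aortas calcify, gave few calls either way: of 16 tested, 2 were higher in valve (12.5%, against 13.9% of all genes) and 3 were lower (18.8%, against 11.4%). ALPL, the phosphatase that removes the mineralisation inhibitor pyrophosphate, had 6.27, 5.12, 3.26 and 6.34 CPM in valves, against 1.22, 1.3 and 1.62 CPM in aortas, and a mean of 6.71 CPM in myocardium (log2 fold change of 1.77 ± 0.32, adjusted p = 0.00733). ANKH, a pyrophosphate exporter, was lower (-0.70 ± 0.16, adjusted p = 0.0148, and 0.0622 without aorta 2), as was KL, the klotho coreceptor of FGF23, at 2.21 to 12.2 CPM in valves and 12.9 to 19.6 CPM in aortas (-1.82 ± 0.49, adjusted p = 0.0293), though that call held only without valve 2 and was lost without each other library (adjusted p up to 0.0945). MGP, the matrix inhibitor of calcification, and RUNX2, the osteoblast factor, were not called (adjusted p = 0.156 and 0.383).

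In the vasoactive list, PDE5A, which breaks down cyclic GMP, had a log2 fold change of -1.47 ± 0.14 (adjusted p = 0.00234), PRKG1, the kinase that cyclic GMP activates, one of -1.19 ± 0.15 (adjusted p = 0.00292), and the guanylate cyclase subunit GUCY1A1 a lower level by the same test (adjusted p = 0.019), whose call was lost without valve 1, valve 4, aorta 1 or aorta 2 (adjusted p up to 0.0753). GUCY1B1, the partner subunit, was also lower (-0.72 ± 0.19, adjusted p = 0.028), a call lost without valve 1, valve 2, valve 4, aorta 1 or aorta 2 (adjusted p up to 0.109). These 4 genes were picked from their list of 29 after their values were seen. Of 13 macrophage markers 7 were higher (53.8%, against 13.9% of all genes) and none lower, among them the complement subunit gene C1QB (1.54 ± 0.26, adjusted p = 0.00647). All 5 tested erythroid genes were higher (against 13.9% of all genes), and the erythroid list took 0.138% to 0.355% of counts in valves, 0.0111% to 0.0448% in aortas and 0.118% to 0.608% in myocardium. Of 17 immediate early genes, 4 were lower (23.5%, against 11.4% of all genes) and none was higher, with JUN, a subunit of the AP-1 factor, at 174.6 to 289.4 CPM in valves and 468.8 to 607.1 CPM in aortas (-1.47 ± 0.18, adjusted p = 0.0029).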
